A study of Rattus norvegicus with 14 samples.

Results

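The genes described here are Ros1 and Ret, which encode receptor tyrosine kinases, together with the phosphatase gene Ptpn6, the ERK target and feedback genes Etv4, Etv5, Dusp6, Spry2 and Spry4, and Gfra1 and Gdnf of the GDNF pathway. They were chosen by symbol in the array annotation, and each of the 10 had 1 cluster of its own among the 18166 genes tested. The samples were 14 pools of RNA from entire epididymides of Sprague-Dawley rats aged 7 days (3 pools), 18 days (4 pools), 28 days (4 pools) or 60 days (3 pools), each on 1 RatGene 2.0 ST array. The labels name no treatment or genetic change for any group; pups of day 7 and day 18 stayed with their mothers. The number of animals in a pool is not in the labels, and each pool mixes epithelium, muscle, stroma, vessels, nerves, immune cells and the contents of the lumen. In such bulk samples, fewer cells of a type and less RNA per cell cannot be told apart.

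The epididymis is the duct in which spermatozoa mature. Its first part, the initial segment, differentiates before puberty and is maintained by factors that reach it in the luminal fluid from the testis. Ros1 is a receptor kinase of that epithelium, and its ligand Nell2 is made by germ cells. Male mice without Ros1 lack the initial segment and are infertile. Ptpn6, also known as SHP-1, is a phosphatase that acts on Ros1 and is abundant in leukocytes. Signals of such receptors run through Ras to the kinase ERK. ERK induces the transcription factors Etv4 and Etv5, and also its own brakes, the phosphatase Dusp6 and the Sprouty proteins Spry2 and Spry4. Gdnf is a secreted ligand that binds the membrane-anchored co-receptor Gfra1, and the pair activates Ret, a route that drives outgrowth of the ureteric bud from the nephric duct, the structure from which the epididymis also arises.

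The promoters of Ros1 and Ret are shown because the levels of these receptor genes parted after day 28, and those of Etv5 and Dusp6 because both rose at that step. Each line gives the 250 bases before the gene's annotated start in RefSeq on GRCr8, 5′ to 3′ on the gene's strand, with CG dinucleotides in capitals. The windows lie at chr20:32126548-32126797 (minus strand) for Ros1, chr4:153040557-153040806 (minus strand) for Ret, chr11:92113013-92113262 (plus strand) for Etv5 and chr7:35979354-35979603 (plus strand) for Dusp6.
Ros1: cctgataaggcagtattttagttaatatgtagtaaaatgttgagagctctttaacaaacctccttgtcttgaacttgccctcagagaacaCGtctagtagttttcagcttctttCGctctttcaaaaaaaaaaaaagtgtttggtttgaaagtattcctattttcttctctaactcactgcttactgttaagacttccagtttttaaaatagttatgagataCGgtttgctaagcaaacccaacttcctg
Ret: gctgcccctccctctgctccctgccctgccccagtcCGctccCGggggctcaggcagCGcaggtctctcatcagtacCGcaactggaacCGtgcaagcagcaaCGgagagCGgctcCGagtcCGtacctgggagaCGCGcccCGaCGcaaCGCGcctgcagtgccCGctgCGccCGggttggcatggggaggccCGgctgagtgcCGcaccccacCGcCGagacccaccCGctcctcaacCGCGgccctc
Etv5: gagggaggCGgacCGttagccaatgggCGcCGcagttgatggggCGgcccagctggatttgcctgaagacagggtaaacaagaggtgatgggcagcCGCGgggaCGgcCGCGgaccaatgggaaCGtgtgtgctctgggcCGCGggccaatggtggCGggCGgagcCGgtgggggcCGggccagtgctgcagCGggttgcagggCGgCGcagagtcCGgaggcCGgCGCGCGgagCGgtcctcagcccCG
Dusp6: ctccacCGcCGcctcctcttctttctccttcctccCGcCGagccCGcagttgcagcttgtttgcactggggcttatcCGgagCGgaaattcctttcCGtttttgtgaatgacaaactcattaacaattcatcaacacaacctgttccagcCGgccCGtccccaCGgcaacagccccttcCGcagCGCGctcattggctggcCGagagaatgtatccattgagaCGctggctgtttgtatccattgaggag
The Ros1 window held 34.8% G and C and 3 CG dinucleotides, and only 5.5% of the 33469 promoters searched held less G and C. The Ret window held 72.8% and 25, the Etv5 window 72.4% and 27, and the Dusp6 window 55.6% and 16, against medians of 51.2% and 5 over all promoters. RefSeq sequence was used for 8 of the 10 genes (not Etv4 and Spry2). The ETS motif CCGGAA, 1 form of the sites that Etv4 and Etv5 bind, was searched on both strands. It occurred in 1 of the 8 windows, that of Spry4, and in 12.6% of all promoters. Other forms of the ETS site were not searched. The AP-1 motif TGANTCA occurred in 0 of the 8 and in 6.34% of all promoters, and the CRE motif TGACGT in 1 of the 8, that of Gdnf, and in 6.95% of all. A match is a string of letters and not a measured site, and a window without one says only that these letters are not in it.

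All values below are the authors' log2 signals, so that a difference of 1 is 2-fold. Array medians ran from 5.21 to 5.42, and the highest was that of day 28 replicate 2; each call at day 28 that changed without this pool is given without it too. Background was taken as 4.92, the level under which the means of 95% of 1344 olfactory and vomeronasal receptor genes lay. The labelled tissue showed its markers: of 11 secretory marker genes of the epididymis 5 were above that level at day 7 and 11 at day 60.

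Over the 4 ages, Ros1 rose at each step, Gfra1 rose until day 28 and Ret rose to day 18 and fell after day 28. Etv5 and Spry4 fell first, and Etv4, Etv5 and Dusp6 rose between day 28 and day 60. By limma's F test 9 of the 10 genes differed between ages, where 60.4% of all genes tested did; the exception was Gdnf (adjusted p = 0.118). Between day 7 and day 18 the test called 6 of the 10, against 38.1% of all genes, with 4 higher and 2 lower, against 17.4% and 20.7%. Between day 18 and day 28 it called 5 of the 10, against 24.7%, with 3 higher and 2 lower, against 10.5% and 14.3%. Between day 28 and day 60 it called 6 of the 10, against 25%, with 4 higher and 2 lower, against 13.8% and 11.2%. Over the longer spans it called 8 of 10 from day 7 to day 28 (5 higher and 3 lower, against 20.5% and 27.4% of all genes and 48% in all). It called 7 of 10 from day 18 to day 60 (5 higher and 2 lower, against 19% and 22.1%, and 41.1% in all) and 8 of 10 from day 7 to day 60 (4 higher and 4 lower, against 21.7% and 27.6%, and 49.2% in all). The pools of the ages compared did not overlap for 8, 5 and 6 of the 10 genes at the 3 steps, against 45.1%, 26.5% and 31.4% of all genes. From day 7 to day 28, day 18 to day 60 and day 7 to day 60 they did not overlap for 8 genes each, against 49.8%, 46.5% and 57.8%. The median difference of the 10 genes was -0.0551, 0.118 and 0.125 at the 3 steps, and that of all genes was 0.0118, -0.0209 and -0.0213. Ros1 was the only one of the 10 called in the same direction at every step. Of 12 haploid germ cell marker genes 1 rose to day 18, 3 to day 28 and 6 to day 60, and 0 fell at each step. The medians were 0.09, 0.14 and 1.24, and 10 were above background at day 60, against 3 at day 28. The part of germ cell RNA in the differences of the 10 genes at day 60 was not tested.

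**Figure D1:**
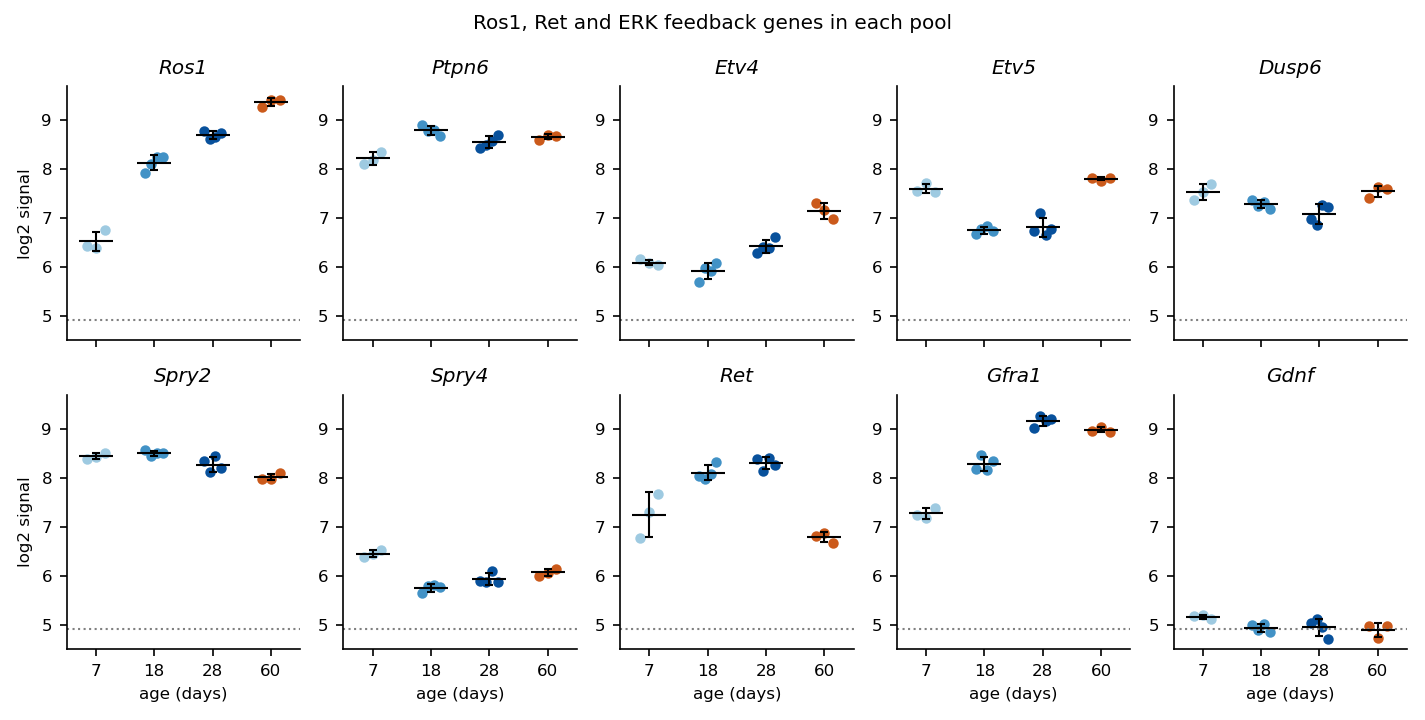
Log2 signal (vertical axis) of each of the 10 genes in each pool, by age in days (horizontal axis); points are pools, bars are the mean ± SD, and the dotted line is the background level of 4.92. Ros1 climbs from a mean of 6.52 to 9.37, Ret drops from 8.30 at day 28 to 6.79 at day 60, and Gdnf stays near the line.

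Ros1 had the largest difference of the 10 genes between day 7 and day 60. Its log2 signal was 6.44, 6.39 and 6.75 in the day 7 pools and 7.91, 8.11, 8.25 and 8.25 in the day 18 pools. It was 8.79, 8.61, 8.66 and 8.73 at day 28, and 9.27, 9.42 and 9.41 at day 60. The 4 ages did not overlap, and each was higher than the one before. Ros1 rose by 1.61 ± 0.10 (log2 difference ± SE) to day 18, 3.04-fold (limma, adjusted p = 1.9e-08). It then rose by 0.57 ± 0.096 to day 28 (adjusted p = 0.00054) and by 0.67 ± 0.10 to day 60 (adjusted p = 0.000302). From day 7 to day 60 the rise was 2.84 ± 0.11, 7.18-fold (adjusted p = 2.37e-11). Among 51 receptor tyrosine kinase genes, Ros1 had the largest rise to day 18 and to day 60 and the 2nd largest to day 28, after Ntrk2 (0.58 ± 0.083), the receptor of a neurotrophin.

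Of the other 49 kinase genes 7 rose and 22 fell between day 7 and day 18. Kit, a receptor of stem cell factor, rose by 1.36 ± 0.099, and Epha7 and Pdgfrb, receptors of ephrins and of platelet-derived growth factor, fell by 1.36 ± 0.15 and 1.24 ± 0.10. Between day 18 and day 28, 7 rose and 11 fell, and Met, the receptor of hepatocyte growth factor, fell by 1.19 ± 0.11. Between day 28 and day 60, 5 rose and 11 fell. The medians of these 49 genes were -0.0751, -0.0204 and -0.0449 at the 3 steps, beside 0.0118, -0.0209 and -0.0213 for all genes.

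**Figure D2:**
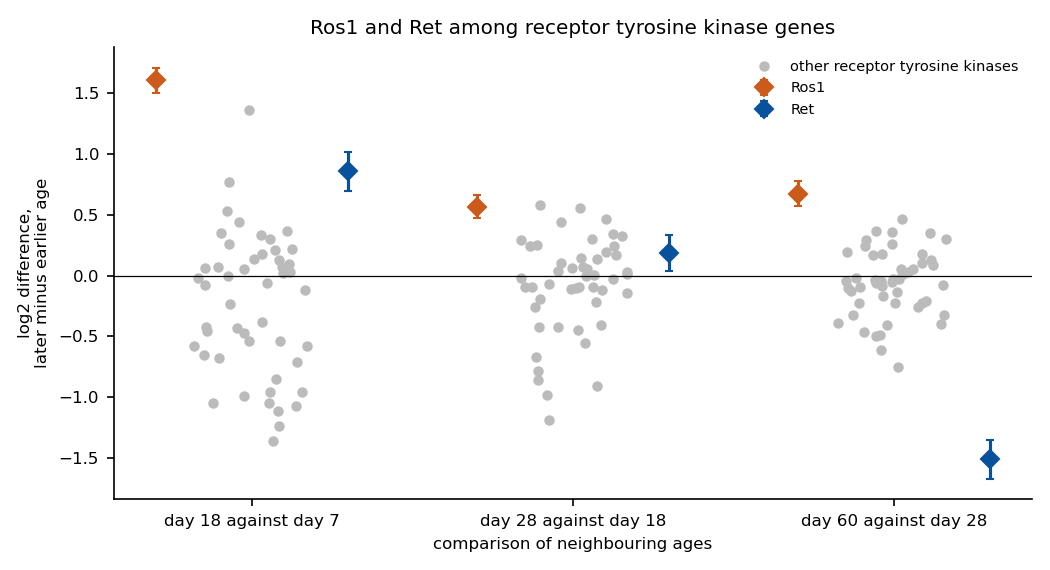
Log2 difference between neighbouring ages (vertical axis) for 51 receptor tyrosine kinase genes at the 3 steps (horizontal axis); diamonds with SE bars are Ros1 and Ret, and grey points are the 49 others, spread sideways at random. Ros1 lies at the upper edge of each step, and Ret lies 1.51 below 0 and under every other kinase gene at the last.

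The ligand Nell2 had means of 5.47, 5.44, 5.58 and 5.53 at the 4 ages, just above background, and did not pass the test at any step (adjusted p = 0.894, 0.37 and 0.756). Nicol1, whose product forms a complex with Nell2, fell by 0.48 ± 0.14 between day 28 and day 60 (adjusted p = 0.0238). In the list of Ros1 ligands and signalling partners 3 of 9 measured genes rose and 1 fell to day 18, 0 rose and 4 fell to day 28, and 1 rose and 2 fell to day 60. Vav3 and Plcg2, signalling proteins downstream of tyrosine kinases, rose by 1.51 ± 0.12 and 1.12 ± 0.093 and then fell by 0.69 ± 0.11 and 1.03 ± 0.086. Irs1, an adaptor of insulin and IGF1 receptors, fell at each step, with differences of -1.02 ± 0.10, -0.39 ± 0.095 and -0.30 ± 0.10.

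Genes whose products mark the initial segment rose beside Ros1. Of 12 measured, 6 rose and 0 fell to day 18, 10 rose and 1 fell to day 28, and 8 rose and 0 fell to day 60. The medians were 0.64, 1.41 and 2.56. Adam28, of the ADAM family, rose by 3.59 ± 0.30 to day 60, from a mean of 6.20. The lipocalin gene Lcn10 rose by 3.68 ± 0.17 to day 28, and the lipocalin gene Lcn9 rose by 5.33 ± 0.31 to day 60. Bmyc, a Myc relative, was the gene of the list that fell, by 0.20 ± 0.067 to day 28. Only 5 of the 12 were above the background level at day 7 and 7 at day 18, so early differences of the others are poorly measured. Adam28 (3.41 and 4.28), Cst11 (2.57 and 2.77) and Cst12 (2.98 and 3.39) lay under it at both ages. Ros1 was well above that level at every age. Epithelial marker genes moved with Ros1 at the first step, where 11 of 11 rose, and not at the later ones, where 0 rose and 5 fell to day 28 and 0 rose and 2 fell to day 60. Their summed signal (log2) was 12.54 to 12.74 at day 7, 13.48 to 13.58 at day 18, 13.23 to 13.30 at day 28 and 13.16 to 13.24 at day 60. Their part in the rise of Ros1 was not tested. The genes most like Ros1 over the 14 pools were Kcnj15, a potassium channel gene (Pearson r = 0.99), Galm, of galactose metabolism (r = 0.99), and A2ml1, a protease inhibitor gene (r = 0.99). The pools share their age groups, which carry most of these correlations.

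Ptpn6 rose once and then varied little. Its log2 signal was 8.11, 8.20 and 8.36 at day 7 and 8.90, 8.77, 8.81 and 8.68 at day 18. It was 8.42, 8.50, 8.58 and 8.70 at day 28, and 8.60, 8.70 and 8.69 at day 60. The day 7 pools lay below all others, and the pools of the other ages overlapped. It rose by 0.57 ± 0.088 to day 18 (limma, adjusted p = 0.000103) and fell by 0.24 ± 0.081 to day 28 (adjusted p = 0.0427). In order of level the ages were day 7, 28, 60 and 18. Day 28 was above day 7 (0.33 ± 0.088, adjusted p = 0.00582), but day 60 did not pass against day 28 (0.11 ± 0.088, adjusted p = 0.387) or against day 18 (-0.13 ± 0.088, adjusted p = 0.274).
The fall to day 28 did not pass with centred arrays (adjusted p = 0.0644) or with the pools of those ages alone (0.0768). It also did not pass without day 7 replicate 2 (0.0545), day 18 replicate 1 (0.12), 2 (0.0746) or 3 (0.0832), day 28 replicate 1 (0.113), 2 (0.0868) or 3 (0.0674), or day 60 replicate 2 (0.0522) or 3 (0.0551).

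Leukocyte marker genes were measured beside Ptpn6. Of 27, 13 rose and 3 fell to day 18, 1 rose and 9 fell to day 28, and 12 rose and 0 fell to day 60, with medians of 0.21, -0.14 and 0.26. Their summed signal (log2) was 12.71 to 12.81, 13.12 to 13.41, 13.18 to 13.28 and 13.50 to 13.57 at the 4 ages. Lcp1, with means of 9.95, 11.67, 11.95 and 12.05, had the highest mean of the 27 from day 18 on. The sum therefore weighs this gene most and does not show the course of the list as a whole. Ptprc, the phosphatase that defines leukocytes, rose by 1.14 ± 0.095 to day 18 and by 0.41 ± 0.095 to day 60. Among the 3 that fell to day 18 were Cd14 and Tyrobp, with differences of -0.78 ± 0.080 and -0.43 ± 0.15. The means of Cd3d, Cd3g and Ms4a1 of lymphocytes over all pools were under the background level. Of the 3 genes most like Ptpn6 over the 14 pools, Laptm5 (r = 0.94) and Nckap1l (r = 0.94) are leukocyte genes, and Nol10 (r = 0.94) is a nucleolar gene. The part of leukocytes in the Ptpn6 signal was not tested. Of the other 33 protein tyrosine phosphatase genes 10 rose and 9 fell to day 18, 0 rose and 7 fell to day 28, and 4 rose and 4 fell to day 60. Ptpn11, a close relative of Ptpn6 that relays signals of growth factor receptors, did not pass at any step (0.06 ± 0.085, 0.09 ± 0.078 and 0.12 ± 0.085).

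Etv4 and Etv5 encode closely related transcription factors that ERK signalling induces, and both rose late. Etv4 measured 6.16, 6.08 and 6.04 at day 7, 5.70, 5.98, 5.92 and 6.07 at day 18, 6.28, 6.41, 6.39 and 6.61 at day 28 and 7.31, 7.16 and 6.99 at day 60. The pools of day 7 and day 18 overlapped, those of day 28 lay above both, and those of day 60 lay above all. Etv4 did not pass at the first step (-0.17 ± 0.11, limma, adjusted p = 0.226), rose by 0.50 ± 0.098 to day 28 (adjusted p = 0.00156) and rose by 0.73 ± 0.11 to day 60 (adjusted p = 0.000176). From day 7 to day 28 it rose by 0.33 ± 0.11 (adjusted p = 0.0176), a call that ended without day 7 replicate 3 (0.0616) or day 28 replicate 4 (0.0534). From day 7 to day 60 it rose 2.08-fold (adjusted p = 1.48e-06).

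Etv5 measured 7.56, 7.71 and 7.54 at day 7 and 6.67, 6.77, 6.84 and 6.74 at day 18. It measured 6.73, 7.10, 6.65 and 6.77 at day 28 and 7.82, 7.76 and 7.83 at day 60. Days 18 and 28 were low and overlapped, and days 7 and 60 were high. Etv5 fell by 0.85 ± 0.098 to day 18 (limma, adjusted p = 6.68e-06) and rose by 0.99 ± 0.098 to day 60 (adjusted p = 6.31e-06), the largest rise of the 33 ERK target and feedback genes at that step. The step between did not pass (0.06 ± 0.091, adjusted p = 0.692). Day 28 replicate 2 was the highest pool of its age for Etv5, and without it this middle difference was -0.04 (adjusted p = 0.765) and the rise to day 60 was 1.09 ± 0.074. Day 60 against day 7 did not pass (0.20 ± 0.11, 95% interval -0.03 to 0.42, adjusted p = 0.137), although the pools did not overlap; it passed without day 28 replicate 2 (adjusted p = 0.0387).

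Within an array, the log2 signal of Etv4 minus that of Etv5, set to 0 at the day 7 mean, was 0.54 to 0.85 at day 18, 0.82 to 1.36 at day 28 and 0.67 to 1.001 at day 60. All later pools lay above the day 7 range of -0.12 to 0.10, so the related genes changed unequally; this was not tested. The genes most like Etv4 over the 14 pools were Plpbp (r = 0.97), a vitamin B6 binding protein gene, and Alg12 and Alg9 (r = 0.97 and 0.97), mannosyltransferases of N-glycan assembly. Those most like Etv5 were Kctd13 (r = 0.97), Ccn2 (r = 0.96), a matricellular growth factor gene, and Alg3 (r = 0.96), a further mannosyltransferase of that assembly.

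The feedback genes took separate courses. Dusp6, a phosphatase that inactivates ERK in the cytoplasm, measured 7.38, 7.53 and 7.70 at day 7, 7.37, 7.26, 7.32 and 7.19 at day 18, 6.97, 6.86, 7.27 and 7.23 at day 28 and 7.41, 7.63 and 7.60 at day 60. Its levels were lowest at day 28, and day 60 lay within the range of day 7. Dusp6 rose by 0.46 ± 0.11 between day 28 and day 60 (limma, adjusted p = 0.00663), and by 0.39 ± 0.10 without day 28 replicate 2 (adjusted p = 0.0161). The earlier steps did not pass (-0.25 ± 0.11, adjusted p = 0.0867, and -0.20 ± 0.10, adjusted p = 0.175). The first of them passed where genes of below-median signal were left out (adjusted p = 0.0404). From day 7 to day 28 the gene fell by 0.45 ± 0.11 (adjusted p = 0.00315), and day 60 against day 7 gave 0.01 ± 0.12 (adjusted p = 0.958, 95% interval -0.24 to 0.26). Day 60 against day 18 did not pass (0.26 ± 0.11, adjusted p = 0.0714), although the pools did not overlap. It passed under quantile normalization (0.0463), with centred arrays (0.0275), where genes of below-median signal were left out (0.0322), with an intensity trend (0.0483), with the pools of those ages alone (0.0367) and without day 28 replicate 2 (0.0453).

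Spry2, which dampens receptor signals upstream of ERK, measured 8.39, 8.43 and 8.52 at day 7, 8.57, 8.45, 8.50 and 8.50 at day 18, 8.34, 8.11, 8.44 and 8.19 at day 28 and 7.98, 7.98 and 8.09 at day 60. Days 7 and 18 overlapped, and every day 60 pool lay below every other pool. From day 18 to day 60 it fell by 0.49 ± 0.084 (limma, adjusted p = 0.000274), and from day 7 to day 60 by 0.43 ± 0.090 (adjusted p = 0.001). Split by step it fell by 0.23 ± 0.078 to day 28 (adjusted p = 0.0405) and by 0.25 ± 0.084 to day 60 (adjusted p = 0.0392), and the first step did not pass (0.06 ± 0.084, adjusted p = 0.609). Day 28 against day 7 did not pass either (adjusted p = 0.11), but did without day 28 replicate 3 (0.038).
Both step calls ended with the pools of the ages alone (adjusted p = 0.0893 and 0.117). The first also ended without day 7 replicate 2 (0.0522), day 18 replicate 1 (0.102), 2 (0.0568), 3 (0.0703) or 4 (0.0748), or day 28 replicate 2 (0.103) or 4 (0.0984). The second also ended without day 7 replicate 2 (0.0504), day 18 replicate 4 (0.0501), day 28 replicate 1 (0.088) or 3 (0.11), or day 60 replicate 1 (0.107), 2 (0.118) or 3 (0.0513).

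Spry4, a second Sprouty gene, measured 6.37, 6.45 and 6.52 at day 7, 5.64, 5.79, 5.82 and 5.77 at day 18, 5.88, 5.88, 6.10 and 5.87 at day 28 and 6.003, 6.06 and 6.14 at day 60. Every day 7 pool lay above every later pool. Spry4 fell by 0.69 ± 0.080 to day 18 (limma, adjusted p = 6.95e-06). The steps after it did not pass (0.18 ± 0.074, adjusted p = 0.0992, and 0.14 ± 0.080, adjusted p = 0.243), and the former passed with centred arrays (adjusted p = 0.0387). Over both steps together, from day 18 to day 60, it rose by 0.31 ± 0.080 (adjusted p = 0.00556). Day 60 stayed below day 7 by a log2 difference of -0.38 ± 0.086 (adjusted p = 0.00176). Within an array, Spry2 minus Spry4, set to 0 at the day 7 mean, was 0.66 to 0.93 at day 18, 0.24 to 0.46 at day 28 and -0.09 to -0.02 at day 60. The day 18 range lay above all others, so the Sprouty genes changed unequally between day 7 and day 18; this was not tested.

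The genes most like Dusp6 over the 14 pools were Nck1, an adaptor gene, Nfx1 and Rrn3 (r = 0.92, 0.90 and 0.89). Those most like Spry2 were Tet3, a DNA demethylation gene, Cenpb and Rpl19 (r = 0.97 each). Those most like Spry4 were Gad1, which makes GABA (r = 0.97), Dsel and Fkbp14 (r = 0.96 and 0.96).

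**Figure D3:**
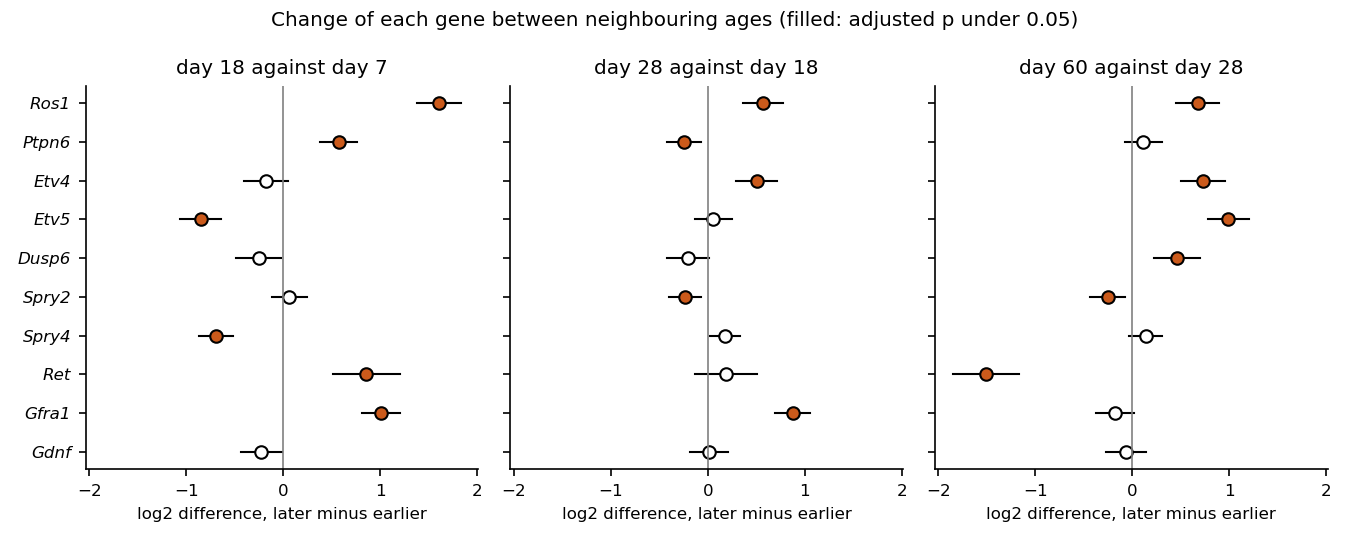
Log2 difference of each of the 10 genes, later minus earlier age (horizontal axis), at the 3 steps; points are fitted differences, lines are 95% intervals, and filled points have an adjusted p under 0.05. Etv4, Etv5 and Dusp6 rose together between day 28 and day 60 (0.73, 0.99 and 0.46) while Spry2 fell by 0.25.

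Of 28 other ERK target and feedback genes measured, 3 rose and 11 fell to day 18, 1 rose and 11 fell to day 28, and 8 rose and 1 fell to day 60. The medians were -0.14, -0.21 and 0.09. Fos and Egr1, transcription factors induced within minutes, fell by 3.87 ± 0.15 and 2.07 ± 0.14 to day 18, with Dusp1, a nuclear phosphatase, lower by a log2 difference of -2.39 ± 0.093. Phlda1 and Dusp5 rose by 1.21 ± 0.086 and 1.20 ± 0.15 at that step. Spry1, a further Sprouty gene, fell by 0.49 ± 0.093 and 0.41 ± 0.086 at the first steps and did not pass at the last (adjusted p = 0.0541). Etv1, the relative of Etv4 and Etv5, fell by 1.18 ± 0.072 and then rose by 0.45 ± 0.067 and 0.55 ± 0.072. Il17rd, a membrane inhibitor of FGF signalling, fell by 0.58 ± 0.072 and 0.40 ± 0.067 and then rose by 0.22 ± 0.072.

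**Figure D4:**
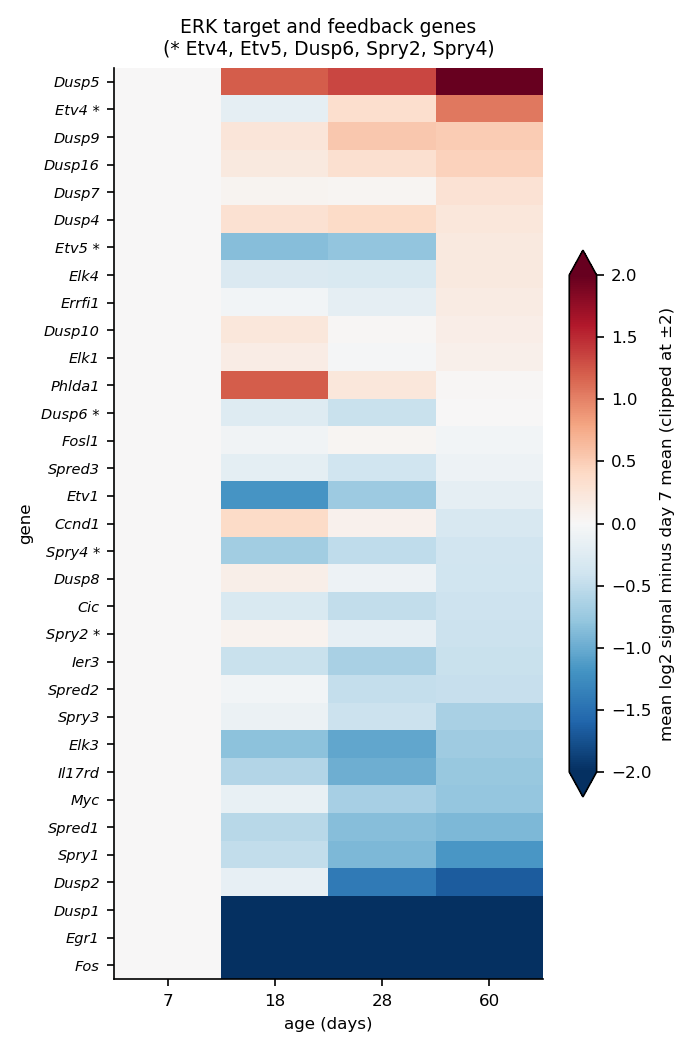
Mean log2 signal relative to day 7 (colour, clipped at 2 either side of 0) of 33 ERK target and feedback genes (vertical axis) at the 4 ages in days (horizontal axis), ordered by the day 60 value; Etv4, Etv5, Dusp6, Spry2 and Spry4 carry an asterisk. Dusp5 and Etv4 end highest above day 7, and Fos, Egr1 and Dusp1 end lowest.

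Immediate early genes, which also respond to handling of tissue, moved with Etv5 and Spry4 at the first step: 1 of 18 rose and 13 fell, with a median of -0.99. Their summed signal (log2) was 13.63 to 14.02 at day 7, 11.96 to 12.12 at day 18, 11.55 to 11.75 at day 28 and 12.05 to 12.20 at day 60. At the last step 6 of 18 rose and 1 fell, with a median of 0.12. Dusp1 rose by 0.95 ± 0.093 (adjusted p = 5.78e-06) and Ccn2, the 2nd most like Etv5 of the genes above background, by 0.93 ± 0.11 (adjusted p = 2.83e-05), at the step at which Etv4, Etv5 and Dusp6 rose. Jun fell by 0.43 ± 0.092, and Fos and Egr1 did not pass (0.12 ± 0.15 and 0.02 ± 0.14). All 18 were above background at every age. Fos, Egr1 and Dusp1 are in both the immediate early and the ERK target list. Fibroblast and smooth muscle marker genes also fell at the first step, 10 of 12 with 0 rising and a median of -0.53. Then 6 rose and 0 fell to day 28, and 1 rose and 4 fell to day 60. Of 7 endothelial marker genes 1 rose and 3 fell, 4 rose and 0 fell, and 0 rose and 0 fell at the 3 steps. The part of any of these lists in the course of the ERK target genes was not tested.

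Upstream of these genes the Ras and ERK cascade changed mainly at the first step, where 6 of 20 rose and 7 fell. Rasgrp1, an activator of Ras, rose by 0.69 ± 0.091 and the adaptor Shc1 fell by 0.55 ± 0.077. At the later steps 1 rose and 1 fell, and 2 rose and 1 fell. Of 21 FGF ligand, receptor and adaptor genes 1 rose and 7 fell, 2 rose and 5 fell, and 2 rose and 5 fell at the 3 steps. Fgfr2, an FGF receptor of epithelia, rose by 0.44 ± 0.079 and then fell by 0.86 ± 0.073 and 0.61 ± 0.079. Fgf7, a stromal ligand of that receptor, rose by 0.82 ± 0.088 to day 28, and Fgf1 rose by 0.84 ± 0.12 to day 60.

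Ret rose and later fell. Its log2 signal was 6.77, 7.31 and 7.67 at day 7, 8.04, 7.98, 8.09 and 8.32 at day 18, 8.38, 8.14, 8.41 and 8.27 at day 28 and 6.80, 6.88 and 6.68 at day 60. The day 18 and day 28 pools overlapped and lay above all others, and the day 7 pools were widely spread (SD 0.45) and overlapped those of day 60. Ret rose by 0.86 ± 0.16 to day 18, 1.81-fold (limma, adjusted p = 0.000548), and did not pass to day 28 (0.19 ± 0.15, adjusted p = 0.398). Between day 28 and day 60 it fell by 1.51 ± 0.16, 2.85-fold lower (adjusted p = 1.13e-05), with a difference of -1.56 ± 0.17 without day 28 replicate 2. That was the 5th largest fall of all 18166 genes at this step, after Fam111a, Pate14, Spink1l and Gstm6l. It was also the largest of the 51 receptor tyrosine kinase genes, the next being Erbb4, a neuregulin receptor, at -0.75 ± 0.18. Day 60 was below day 7 by a log2 difference of -0.46 ± 0.17 (adjusted p = 0.0353). The size of this difference rested on the spread day 7 pools: it was -0.70 without day 7 replicate 1 and -0.25 without day 7 replicate 3. The call ended without day 7 replicate 2 (0.0918) or 3 (0.199) or without day 60 replicate 1 (0.0698) or 3 (0.109). It also ended under quantile normalization (0.0656), with centred arrays (0.0667) and with the pools of those ages alone (0.0916).

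Gfra1, the co-receptor, measured 7.25, 7.18 and 7.39 at day 7, 8.19, 8.47, 8.15 and 8.34 at day 18, 9.01, 9.27, 9.17 and 9.20 at day 28 and 8.97, 9.04 and 8.94 at day 60. It climbed until day 28 without overlap, and the day 28 and day 60 pools overlapped. Gfra1 rose by 1.01 ± 0.092 to day 18 (limma, adjusted p = 5.65e-07) and by 0.88 ± 0.085 to day 28 (adjusted p = 2.87e-06). It did not pass to day 60 (-0.18 ± 0.092, adjusted p = 0.171, 95% interval -0.38 to 0.02), where its mean remained 3.27-fold above day 7 (adjusted p = 1.67e-09). Within an array, the log2 signal of Ret minus that of Gfra1, set to 0 at the day 7 mean, was -0.46 to 0.01 at day 18, -1.11 to -0.61 at day 28 and -2.24 to -2.13 at day 60. The receptor and the co-receptor thus moved apart within every array of day 60; this was not tested.

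Gdnf, the ligand, stayed near the background level of 4.92. It measured 5.18, 5.19 and 5.11 at day 7, 5.002, 4.88, 5.01 and 4.84 at day 18, 5.03, 5.11, 4.95 and 4.71 at day 28 and 4.97, 4.72 and 4.96 at day 60. The day 7 pools were the highest except that day 28 replicate 2 reached their range, and the other ages overlapped. No step passed (limma, -0.23 ± 0.098, 0.02 ± 0.091 and -0.07 ± 0.098, adjusted p = 0.0853, 0.917 and 0.678). Under quantile normalization Gdnf passed at the first step (-0.28, adjusted p = 0.0197), as it did with the pools of those ages alone (0.0378) and without day 28 replicate 4 (0.0471). Day 28 against day 7 did not pass (-0.21 ± 0.098, adjusted p = 0.0932), but did under quantile normalization (0.00722) and without day 28 replicate 2 (0.0396). From day 7 to day 60 Gdnf fell by 0.28 ± 0.11 (limma, adjusted p = 0.041), to a mean of 4.88, which was under the background level. That call ended with centred arrays (0.158), with an intensity trend (0.101), and without day 7 replicate 1 (0.0969), 2 (0.101) or 3 (0.0573), day 28 replicate 3 (0.0513) or day 60 replicate 2 (0.182).

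Other genes of the GDNF family followed further courses. Of 10, 1 rose and 4 fell to day 18, 1 rose and 1 fell to day 28, and 1 rose and 2 fell to day 60, with medians of -0.01, 0.05 and -0.18. Gfra4, the co-receptor of persephin, rose by 1.71 ± 0.10 at the last step, from 6.15 to 7.85. Gfra2, the co-receptor of neurturin, fell by 1.21 ± 0.089, rose by 0.95 ± 0.083 and fell by 0.59 ± 0.089. Artn, the ligand artemin, fell by 0.68 ± 0.15 to day 18 and by 0.64 ± 0.15 to day 60, and Ncam1, an adhesion molecule that also binds Gdnf, fell by 1.87 ± 0.12 to day 18. Gfral, the receptor of Gdf15, was not above background at any age.

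Of 17 measured genes listed for the nephric duct and the tissue around it, 4 rose and 7 fell, 2 rose and 5 fell, and 0 rose and 3 fell at the 3 steps. The means of Foxc1, Six2 and Sall1 over all pools were under the background level. Pax2, a transcription factor of the duct epithelium, rose by 0.66 ± 0.071 and 0.41 ± 0.066 and did not pass at the last step (0.03 ± 0.071). Lhx1, which is also needed for the duct, fell by 1.26 ± 0.17 and 0.94 ± 0.15. Emx2 fell by 0.37 ± 0.085 and Mmp14, a membrane protease, by 0.36 ± 0.069 at the step at which Ret fell.

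Ret and Gfra1 are also expressed by nerves, whose marker genes were measured beside them. Of 12 neuron marker genes 1 rose and 3 fell, 3 rose and 0 fell, and 4 rose and 1 fell at the 3 steps. Their median differences were -0.0786, 0.253 and -0.105. Their summed signal (log2) was 10.88 to 11.13, 9.68 to 9.84, 10.16 to 10.32 and 10.77 to 10.89 at the 4 ages. Uchl1, with means of 10.56, 8.80, 9.38 and 10.12, had the highest mean of the 12 at every age. The sum therefore weighs this gene most and does not show the course of the list as a whole. Other genes took separate courses. Th, of catecholamine synthesis, had means of 4.70, 4.99, 5.94 and 7.98, and Gap43, of growing axons, fell by 0.54 ± 0.15 to day 60. The means of Phox2a, Tubb3 and Elavl4 over all pools were under the background level. Of 8 Schwann cell marker genes 2 rose and 2 fell, 0 rose and 1 fell, and 1 rose and 0 fell. Their median differences were -0.0403, -0.0657 and -0.0432. S100b had a difference of -1.96 ± 0.21 to day 18 and was the gene that rose to day 60, by 1.51 ± 0.21. The summed signal of the 8 was 9.64 to 9.83, 9.27 to 9.44, 9.16 to 9.36 and 9.43 to 9.89. At day 7 and day 60, S100b had the highest mean of the 8 (8.51 and 8.33) and weighed most in this sum. Cdh19 and Gfap were under the background level. Epithelial marker genes rose in 11 of 11 at the first step, at which Ret and Gfra1 rose. At the later steps 0 of them rose, and 5 and 2 fell. Of 11 secretory marker genes of the epididymis 8, 10 and 5 rose and 0 fell at the 3 steps. The part of nerves and of epithelium in the Ret and Gfra1 signals was not tested.

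The genes most like Ret over the 14 pools were Lage3 (r = 0.96), Rn5-8s (r = 0.94), the 5.8S ribosomal RNA, and Stk11 (r = 0.92), a kinase of energy sensing. They fell by less than Ret between day 28 and day 60, with differences of -0.56, -0.59 and -0.58. The part of RNA preparation in this shared course was not tested. The genes most like Gfra1 were Hspa5, a chaperone of the endoplasmic reticulum (r = 0.99), Pate7 (r = 0.99), and Defb13, a defensin (r = 0.99). Those most like Gdnf were Lrrc26, Dpysl5 and Tff3 (r = 0.88, 0.86 and 0.82), at signals closer to background.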

How the data were processed

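Expression was measured on 14 Affymetrix RatGene 2.0 ST arrays, each with RNA from a pool of whole epididymides. Per the submitters' processing notes, the authors used RMA and the Transcriptome Analysis Console; no version or setting is given. The deposited values are log2 signals per transcript cluster, and the genome build is not given in the sources used here. Of the 36685 clusters, 18511 had 1 symbol in the array annotation, and the cluster with the highest mean was kept for each of 18166 genes. Genes of low signal stayed in.

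With limma 3.58.1 (lmFit and eBayes, R 4.3.3), a model of 1 mean per age was run on the 14 arrays together. Differences between ages were tested two-sided, with Benjamini-Hochberg adjustment over all 18166 genes and a threshold of 0.05. A level is given with its SD between pools and a difference with its model SE. The fit was tested on simulated data. The number of pools limits the precision. The labels do not say how the pools of an age were kept apart, so p-values measure the spread between these pools, which may be technical.

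The members and gene lists were chosen with earlier results of these data known. Genes were named by rule: the members, up to 2 called genes per list, step and direction, by size of difference, and the 3 genes most like each member. Likeness was the Pearson correlation over the pools, among genes whose mean over all pools lay above the background level. Other list genes named for their role were chosen after their values were seen. The replicate numbers did not pair the pools. Alternatives covered scaling, a filter on low signal, the variance model, the pools fitted, a block and the choice of cluster. Each pool was also left out in turn.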

Additional observations from a re-analysis of the deposited data

Results flagged for a closer look

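Of 20 groups of 4 pools examined, the 10 genes at day 18 and at day 28, 1 held a pool far from the rest. Spry4 in day 28 replicate 3 was 6.10, while the other day 28 pools lay at 5.88, 5.88 and 5.87, and the gap was 94.2% of the range. Chance alone flags about 1 in 20 such groups.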

How the results depend on the processing

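Of the 60 differences between ages of the 10 genes, 42 kept their direction and their side of the threshold under all alternatives run for them, among them 34 of the 40 called ones. The calls that ended and the differences that passed only under an alternative are given with their values beside the results, except for the replicate block, which is given here. The step calls of Ptpn6 to day 28 and of Spry2 to day 28 and to day 60 had adjusted p-values just under 0.05 and ended most often. Changes of sign occurred in 11 values, none of them called in either setting, and the cause was not tested. They were Etv5 from day 18 to day 28 without day 28 replicate 2 (-0.037, with a range of -0.037 to 0.114 over the pools left out), and Dusp6 from day 7 to day 60 without day 7 replicate 1 (-0.0689) or day 60 replicate 2 (-0.03) or 3 (-0.02), where leaving out each pool gave -0.0689 to 0.0907. The rest were differences of Gdnf. From day 18 to day 28 it gave -0.041 under quantile normalization, -0.000115 without day 18 replicate 2, -0.01 without day 18 replicate 4, -0.00837 without day 28 replicate 1 and -0.0376 without day 28 replicate 2, in a range of -0.0376 to 0.0968 over the pools left out. Without day 60 replicate 2 it gave 0.0163 from day 28 to day 60 (range -0.146 to 0.0163) and 0.033 from day 18 to day 60 (range -0.0927 to 0.033). Counts of called genes stayed within 1.5 times those reported: leaving out a pool gave 5856 to 7367 for day 18 against day 7 (6929 reported), 3677 to 4492 for day 28 against day 18 (4491) and 3431 to 4459 for day 60 against day 28 (4550). With the replicate number as a block the counts were 6492, 4201 and 3928, and the fall of Ptpn6 to day 28 did not pass (adjusted p = 0.067). No same-numbered pair of pools had deviations that correlated above 0.1, and 3 of 14 pools correlated best with a pool of their own number. Of the 10 genes 7 were at or above the median level, so Etv4, Spry4 and Gdnf have no value under that filter. Gdnf lay so near the background level that changes in it are poorly measured.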
